A study of Sus scrofa with 13 samples.

Results

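A total of 37 Ensembl genes were restricted to spleen among the 21607 Ensembl genes listed for these pig libraries. A gene was counted as spleen-restricted when its RPKM (its reads scaled by gene length and by the total reads of the library) was at least 1 in spleen, was higher there than in the other organs at day 240, and gave a tau of at least 0.9. Tau is an index of organ restriction over the 9 organs, computed on log2(RPKM + 0.1), that is 0 for equal values in all organs and 1 for a gene seen in a single organ. The 37 genes were 0.243% of the 15252 Ensembl genes that reached 1 RPKM in an organ, called the expressed genes below. They were chosen by their RPKM in these 9 organs, so the organ values are given below as a description only, without a test.

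The data were RPKM values of total RNA from 13 libraries. Guizhou mini-pigs gave 11 of them, with heart, liver, spleen, lung, kidney, testis, ovary, adipose tissue and longissimus dorsi (the muscle along the back) taken at day 240 after birth, and longissimus dorsi also at day 0 and day 30. The other 2 were mixtures of equal quantities of RNA from pigs of multiple breeds and ages, 1 of multiple tissues and 1 of longissimus dorsi. Each tissue or stage was sequenced as 1 library without replicates, so the differences below were not tested. The labels tie no library to an animal, and they name neither the tissues in the tissue mixture nor the number of pigs behind a library.

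The spleen filters blood and holds a large part of the body's lymphocytes. Its white pulp is built of B cell follicles and T cell zones, its red pulp is lined with sinuses and macrophages that remove old red cells, and its stroma is laid down in the embryo under homeobox transcription factors. In bulk RNA, fewer cells of a type and less RNA per cell cannot be told apart, and this holds for each value below.

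Whole reads could be recovered from the RPKM values. The total behind the spleen values was 36394734 reads, against 21685316 to 38581416 in the single-tissue libraries. Only 4219511 spleen reads (11.6%) were counted on listed features, against up to 38.0% in ovary, and the summed RPKM of 61672 in spleen was the lowest among the 13 libraries. The 37 genes took 12620 of these reads (0.299% of the counted reads), and 53.8% of the 12620 fell on 3 genes. Intervals given with RPKM are exact Poisson 95% intervals of the reads, which cover counting error only. For the 10 genes above 0 in fewer than 4 libraries, the recovered reads and lengths are lower bounds. The intervals of these genes may thus be too wide.

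The spleen-restricted genes were mostly low. Their RPKM in spleen ranged from 1.17 to 117 with a median of 2.92, 12 of them were under 2 and 6 were at least 10. Their reads in spleen ranged from 16 to 3274 with a median of 78, and 17 genes had at least 100 reads. The interval lay wholly above 1 RPKM for 28 genes and reached below it for 9. The median length behind their values was 969 nucleotides, shorter than the 1806 of the expressed genes. In the other organs most values were at or close to 0. The spleen held a median of 92.7% of a gene's RPKM summed over the 9 organs, and 78.2% at the lowest.

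**Figure D1:**
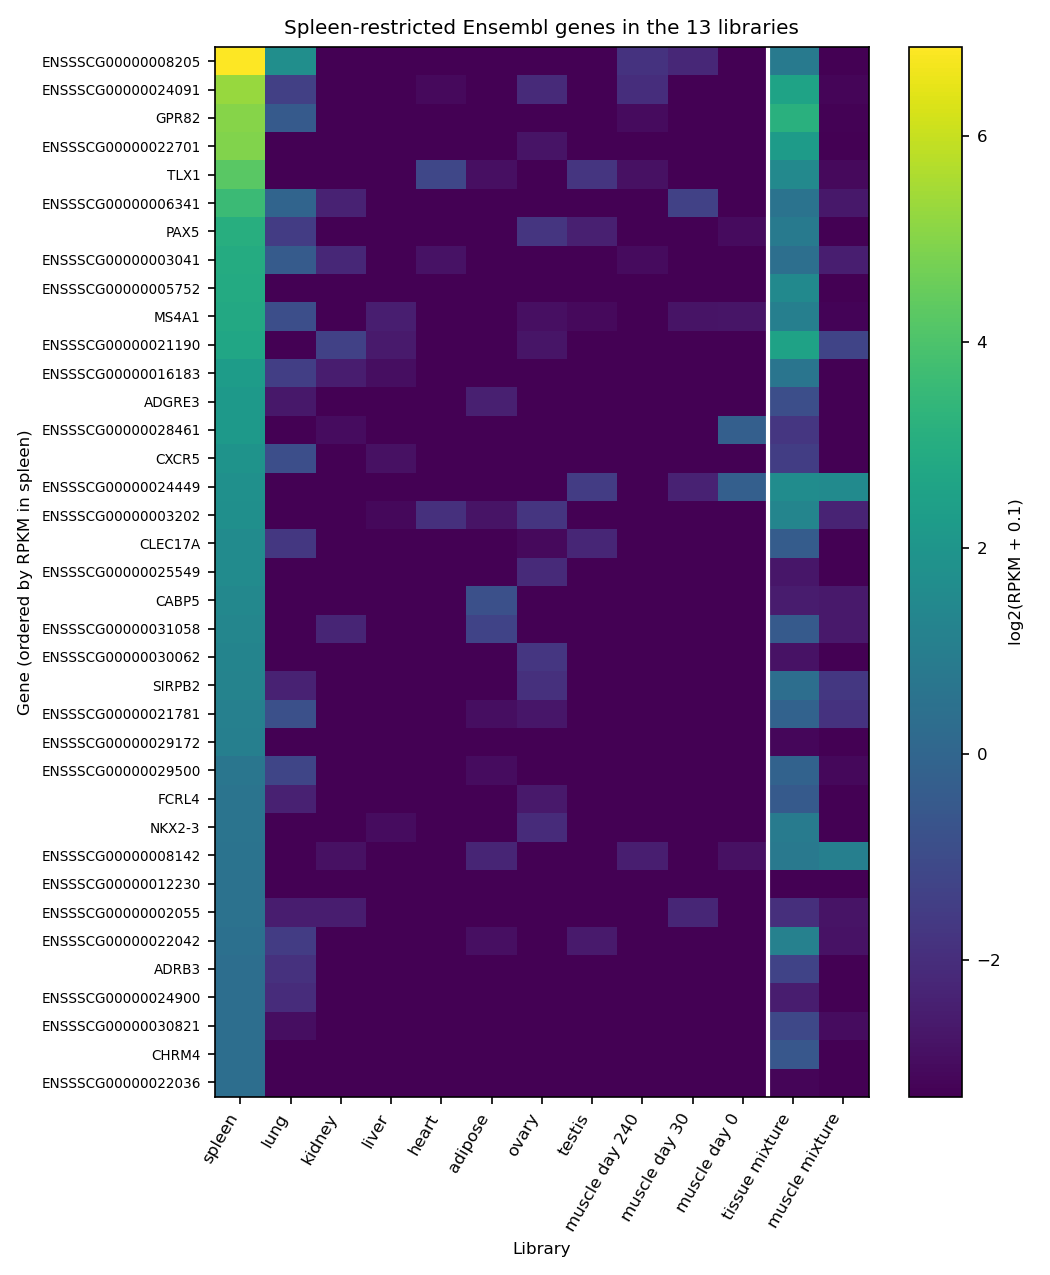
Expression of the 37 spleen-restricted genes (rows, ordered by RPKM in spleen) in the 13 libraries (columns), coloured by log2(RPKM + 0.1), with the mixtures to the right of the white line. The spleen column is bright throughout by the rule, lung holds most of the weaker values among the organs, and the tissue mixture is above 0 for 36 of the 37 genes.

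Among the 37 genes, 13 had a gene symbol (35.1%, against 63.3% of the expressed genes) and 24 were known by identifier only. The named genes fell into B cell receptors and their transcription factor, patterning factors of the spleen, receptors of myeloid and other cells, and receptors or sensors better known from nerve and fat. They are described in this order.

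The B cell genes were led by PAX5 (ENSSSCG00000005345), the transcription factor that commits lymphoid progenitors to the B cell fate. It had 8.25 RPKM in spleen (353 reads, interval 7.41 to 9.15), 0.253 in lung, 0.196 in ovary, 0.0882 in testis and 0 in the other organs. Among the libraries that the rule did not use, it had 0.0238 RPKM in muscle at day 0 (1 read), 0 at day 30, 1.68 in the tissue mixture and 0 in that of muscle. Its spleen value was thus far above that of any other library, and only the tissue mixture was also above 1. PAX5 was the spleen-restricted gene among 7 measured PAX genes, and PAX2, a kidney factor, had 0 RPKM in spleen.

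MS4A1 (ENSSSCG00000021812) encodes CD20, the surface protein of mature B cells. It had 6.96 RPKM in spleen (701 reads, interval 6.45 to 7.49), 0.450 in lung, 0.0820 in liver, 0.0333 in ovary, 0.0187 in testis and 0 in heart, kidney, adipose tissue and muscle at day 240. In muscle it had 0.0505 RPKM at day 0 and 0.0443 at day 30, resting on 5 and 3 reads, and it had 1.99 in the tissue mixture, and 0.00573 in that of muscle (1 read). MS4A1 was above 0 in 9 of the 13 libraries, more than any other gene of the 37, but reached 1 RPKM only in spleen and the tissue mixture.

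CXCR5 (ENSSSCG00000015098) is the receptor for CXCL13 that guides B cells into follicles. It had 3.65 RPKM in spleen (228 reads, interval 3.19 to 4.15), 0.441 in lung, 0.0378 in liver, 0.263 in the tissue mixture and 0 elsewhere. Its ligand gene CXCL13 had 2.11 RPKM in spleen and 0.389 in lung, but with a tau of 0.83 it was not spleen-restricted. The related receptor genes CXCR3 and CXCR6 were also highest in spleen, at 0.475 and 0.389 RPKM, both under the limit of 1.

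FCRL4 (ENSSSCG00000006458) encodes an inhibitory Fc receptor-like protein of memory B cells. It had 1.41 RPKM in spleen (78 reads, interval 1.11 to 1.76), 0.0888 in lung, 0.0605 in ovary, 0.636 in the tissue mixture and 0 elsewhere. Of 6 measured FCRL genes 5 were highest in spleen, and FCRL3 (5.92 RPKM) and FCRL1 (3.01 RPKM) were higher there than FCRL4. They were not spleen-restricted, with a tau of 0.84 for FCRL3 (1.22 RPKM in ovary) and of 0.82 for FCRL1 (0.613 in ovary and 0.366 in kidney). The sources used here do not state how reads that match several such related genes were treated.

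CLEC17A (ENSSSCG00000013777), a lectin known from B cells of germinal centres, had 2.93 RPKM in spleen (238 reads, interval 2.57 to 3.33). It had 0.218 RPKM in lung, 0.116 in testis, 0.0207 in ovary (1 read) and 0.683 in the tissue mixture, and it was at 0 elsewhere. All 5 of these B cell genes thus had their next highest organ value in lung, and none reached 0.5 RPKM there.

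The second group held the patterning factors. TLX1 (ENSSSCG00000010561) is a homeobox factor without which the mouse embryo forms no spleen. It had 19.2 RPKM in spleen (550 reads, interval 17.7 to 20.9), 0.354 in heart (10 reads), 0.198 in testis (6 reads), 0.0337 in adipose tissue and 0.0390 in muscle at day 240, the last 2 resting on 1 read each. It was at 0 in lung and in the younger muscle, and it had 2.71 RPKM in the tissue mixture, and 0.0202 in that of muscle (1 read). TLX1 was the spleen-restricted gene with heart as its next highest organ. TLX2 and TLX3, its relatives, were at 0 in the 9 organs.

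NKX2-3 (ENSSSCG00000010538) is a homeobox factor of the splenic and gut mesenchyme. It had 1.41 RPKM in spleen (67 reads, interval 1.09 to 1.78), 0.141 in ovary (4 reads) and 0.0248 in liver (1 read), and it was at 0 in the other single-tissue libraries and in the muscle mixture. In the tissue mixture it had 1.78 RPKM (252 reads), above its spleen value as deposited, although the intervals of both overlapped. With RPKM scaled to equal totals or equal median ratios, the mixture was below spleen, at 0.468 or 0.451 of it. The other 5 measured NKX genes were at 0 in spleen. In the RefSeq annotation of assembly Sscrofa11.1, NKX2-3 and TLX1 lie on the same chromosome with 27 coding genes between them.

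Among the receptors, GPR82 (ENSSSCG00000012254), an orphan G protein-coupled receptor, took the most reads of the 37 genes. It had 32.0 RPKM in spleen (3274 reads, interval 31.0 to 33.2), 0.636 in lung (66 reads), 0.0218 in muscle at day 240 (2 reads) and 0 in the remaining organs. In the tissue mixture it had 8.63 RPKM (2625 reads), the highest value of any of the 37 genes there, and in the muscle mixture 0.00565 (1 read). Its relative GPR34 had 3.02 RPKM in spleen and 3.10 in ovary, with a tau of 0.49.

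ADGRE3 (ENSSSCG00000013787), an adhesion receptor of the EGF-TM7 family found on myeloid cells, had 4.52 RPKM in spleen (156 reads, interval 3.84 to 5.28). It had 0.0837 RPKM in adipose tissue (3 reads), 0.0570 in lung (2 reads) and 0.447 in the tissue mixture, and it was at 0 elsewhere. ADGRE5 of the same family was highest in lung, with 28.9 RPKM against 8.41 in spleen. In Sscrofa11.1 ADGRE3 and CLEC17A are neighbours with 0 coding genes between them. SIRPB2 (ENSSSCG00000007185), of the signal-regulatory protein family, had 2.29 RPKM in spleen (91 reads, interval 1.84 to 2.81), 0.169 in ovary and 0.0989 in lung (4 reads each). It had more reads in the muscle mixture than any other named gene of the 37, with 1.20 RPKM in the tissue mixture, and 0.218 (15 reads) in that of muscle.

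The last 3 named genes are better known outside the immune system. CABP5 (ENSSSCG00000003126), a calcium-binding protein known from the retina, had 2.63 RPKM in spleen (50 reads, interval 1.95 to 3.47) and 0.457 in adipose tissue (9 reads). It had 0.0707 RPKM in the tissue mixture (4 reads), and 0.0608 in that of muscle (2 reads), so the spleen value had little counterpart in the mixture. The other organs and the younger muscle were at 0.

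ADRB3 (ENSSSCG00000015821), the beta-adrenergic receptor known from fat, had 1.19 RPKM in spleen (53 reads, interval 0.891 to 1.56), 0.177 in lung (8 reads) and 0.309 in the tissue mixture (41 reads). In adipose tissue it had 0 reads, as in all other libraries. ADRB1 had 0.670 RPKM in spleen and 0.860 in lung. CHRM4 (ENSSSCG00000013261), a muscarinic acetylcholine receptor, had 1.17 RPKM in spleen (58 reads, interval 0.887 to 1.51) and 0.582 in the tissue mixture (86 reads), and 0 in the 11 remaining libraries. In the other 8 organs, 3 reads of CHRM4 would be worth at most 0.0570 to 0.101 RPKM, so spleen was at least 11.5-fold higher. The lower bounds of both spleen intervals were under the limit of 1 RPKM. ADRB3 and CHRM4 were above 0 in few libraries, so their reads are lower bounds and these intervals may be too wide.

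**Figure D2:**
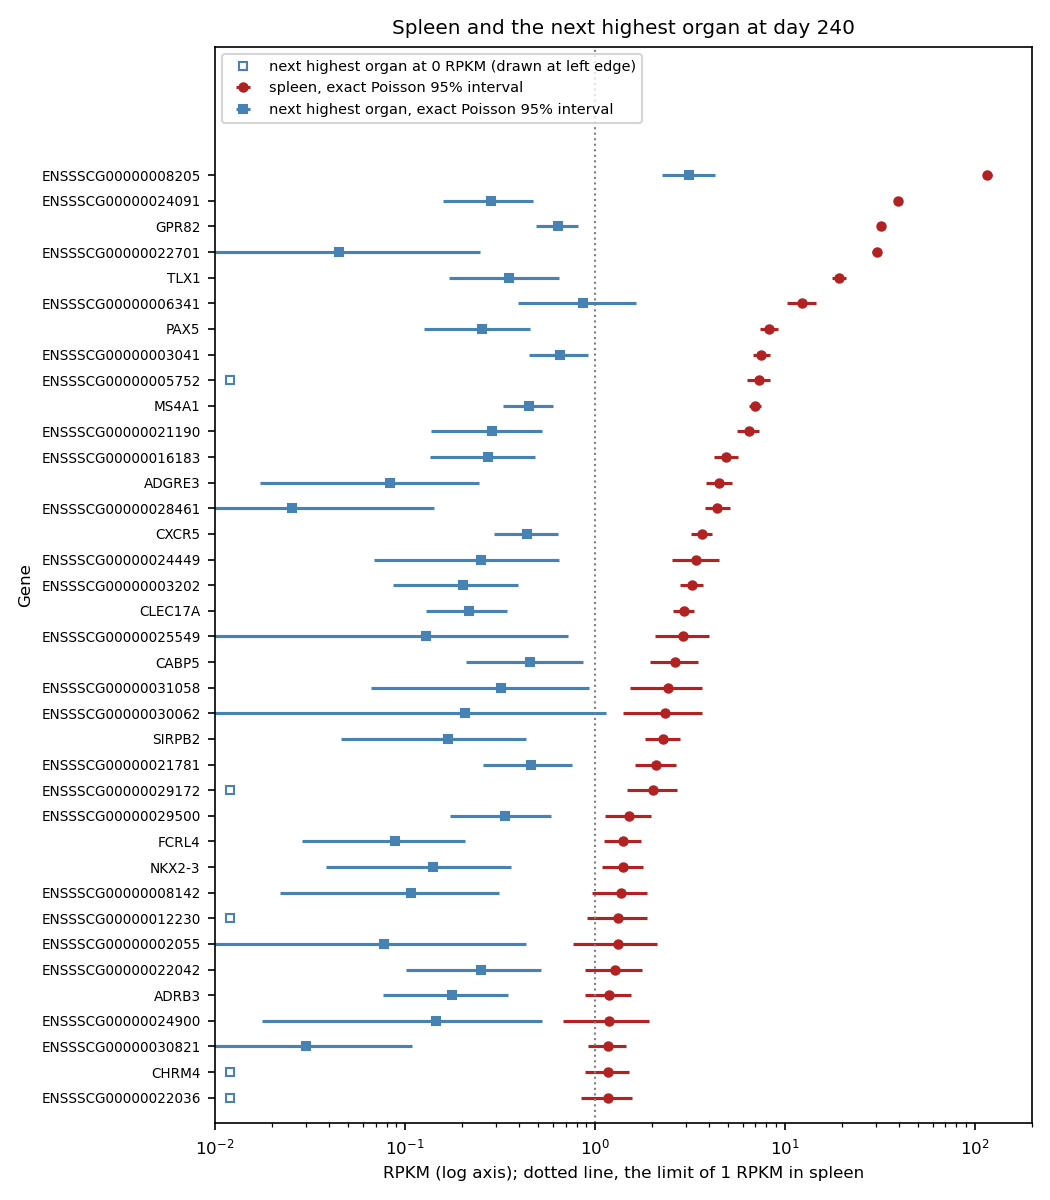
RPKM in spleen (red circles) and in the next highest of the 9 organs (blue squares) for each spleen-restricted gene, on a log axis, with bars for the exact Poisson 95% interval of the reads and open squares for genes at 0 in the other 8 organs. The rule chose the genes by these organ values, so the gap between spleen and the next organ is a description only. Of the spleen intervals, 9 reach below the limit of 1 RPKM.

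Among the 10 genes with the highest RPKM in spleen, 6 had no symbol. ENSSSCG00000008205 was the highest of the 37, with 117 RPKM in spleen (1464 reads, interval 111 to 123), and no other gene of the 37 reached 1 RPKM in a further organ, where it had 3.14 in lung (40 reads). It had 0.178 RPKM in muscle at day 240 (2 reads), 0.119 at day 30 (1 read) and 1.71 in the tissue mixture, which was 0.0147 of its spleen value. ENSSSCG00000024091 followed with 39.6 RPKM in spleen, 0.285 in lung, 0.150 in muscle at day 240, 0.129 in ovary and 5.93 in the tissue mixture. These were the genes with the most reads after GPR82.

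ENSSSCG00000022701 had 30.4 RPKM in spleen (1142 reads, interval 28.6 to 32.2), 0.0446 in ovary (1 read, interval 0.00113 to 0.249) and 4.73 in the tissue mixture, and was at 0 elsewhere. ENSSSCG00000006341 had 12.3 RPKM in spleen and 0.863 in lung, ENSSSCG00000003041 had 7.52 in spleen and 0.656 in lung, and ENSSSCG00000005752 had 7.32 in spleen (204 reads) and 0 in the other 8 organs. ENSSSCG00000005752 was at least 40.5-fold higher in spleen than a value of 3 reads in any of them. The genes without a symbol had a median of 2.67 RPKM in spleen against 2.93 for those with a symbol, and a median length of 760.5 against 1310 nucleotides.

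A total of 5 genes were at 0 in the 8 other organs, namely CHRM4, ENSSSCG00000005752, ENSSSCG00000029172, ENSSSCG00000012230 and ENSSSCG00000022036. Of these, ENSSSCG00000012230 was above 0 in spleen alone of the 13 libraries, with 1.33 RPKM from 31 reads. For the 32 genes above 0 in another organ, the spleen RPKM was a median of 14.8 times that of the next highest organ and 4.49 times at the lowest. Lung was the next highest organ for 17 genes, ovary for 6, adipose tissue for 4, kidney for 3 and heart and testis for 1 each. The same counts over other genes highest in spleen are not given here. Of the 37 genes 20 (54.1%) were above 0 in lung, against 94.3% of the expressed genes. The sum over the 37 genes was 8.93 RPKM in lung against 346 in spleen. These values include the reads behind tau and are a description.

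The values at 0 depend on depth. When values under 3 reads in the other organs were set to 3 reads, an alternative chosen after seeing the data, tau stayed at 0.9 or more for GPR82 alone (0.91), and the median tau over the 37 genes was 0.80. At this depth, restriction at this limit could thus be seen for 1 gene with a floor of 3 reads. For the shorter genes the floor was high. In ENSSSCG00000030062, of at least 224 nucleotides, 3 reads were worth at most 0.347 to 0.618 RPKM in the other organs, against 2.33 RPKM in spleen. The recovered lengths of the 10 genes above 0 in fewer than 4 libraries are lower bounds. Their 3-read values may thus be too high, and their tau with this floor too low.

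Near the limits of the rule, ENSSSCG00000022042 (tau 0.901) and ENSSSCG00000021781 (tau 0.902) were just inside, and PRRX2 (tau 0.8997) and ENSSSCG00000015275 (tau 0.895) were just outside. PRRX2, a homeobox factor of mesenchyme, had 1.46 RPKM in spleen and 0.413 in ovary. Several lymphocyte genes also lay shortly below the limit of tau, among them the lymphocyte homing receptors CCR7 (1.26 RPKM in spleen, tau 0.894) and CCR6 (1.42 RPKM, tau 0.891) and the T cell transcription factor BCL11B (1.85 RPKM, tau 0.888). On the limit of 1 RPKM, CHRM4 and ENSSSCG00000022036 (both 1.17) were just inside, and CNFN (0.981) and the B cell coactivator POU2AF1 (0.945, 33 reads) just outside.

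The spleen-restricted genes were set beside 13 lists of genes for cell types and tissues a spleen sample could hold, counting those genes that a listed identifier was paired with. A total of 6 of the 37 genes were in a list. These were MS4A1, CXCR5 and FCRL4 among B cell surface genes, PAX5 among B cell signalling genes, and TLX1 and NKX2-3 among stromal and patterning genes. Over the expressed genes, 5.58% (851) were highest in spleen. For B cell surface and receptor genes it was 12 of 13, for B cell signalling and transcription genes 8 of 12, for T cell genes 13 of 18, for natural killer and cytotoxic genes 7 of 10, for chemokines, cytokines and their receptors 8 of 11, for MHC class II and antigen processing genes 6 of 8 and for red pulp macrophage and myeloid genes 6 of 11. Spleen-restricted genes are highest in spleen by the rule. They were 37 of the 851, 3 of the 12 B cell surface genes and 1 of the 8 B cell signalling genes. The chemokine, T cell, natural killer, MHC class II and macrophage lists held no spleen-restricted gene, where CXCR5, a chemokine receptor, was counted in the B cell surface list. The T cell gene CD3D had 11.2 RPKM in spleen and 4.43 in lung (tau 0.62), and the red pulp macrophage factor SPIC had 64.9 in spleen and 1.52 in ovary (tau 0.84). In the same list as SPIC, MARCO (3.86 in spleen and 45.7 in lung) and TIMD4 (2.86 and 6.35) were highest in lung. In the MHC class II list, SLA-DQB1 (113 in spleen and 109 in lung) and SLA-DMA (14.7 and 13.5) were close to lung, whereas CTSS had 151 and 81.7. CIITA was counted in both the B cell signalling and the MHC class II list.

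**Figure D3:**
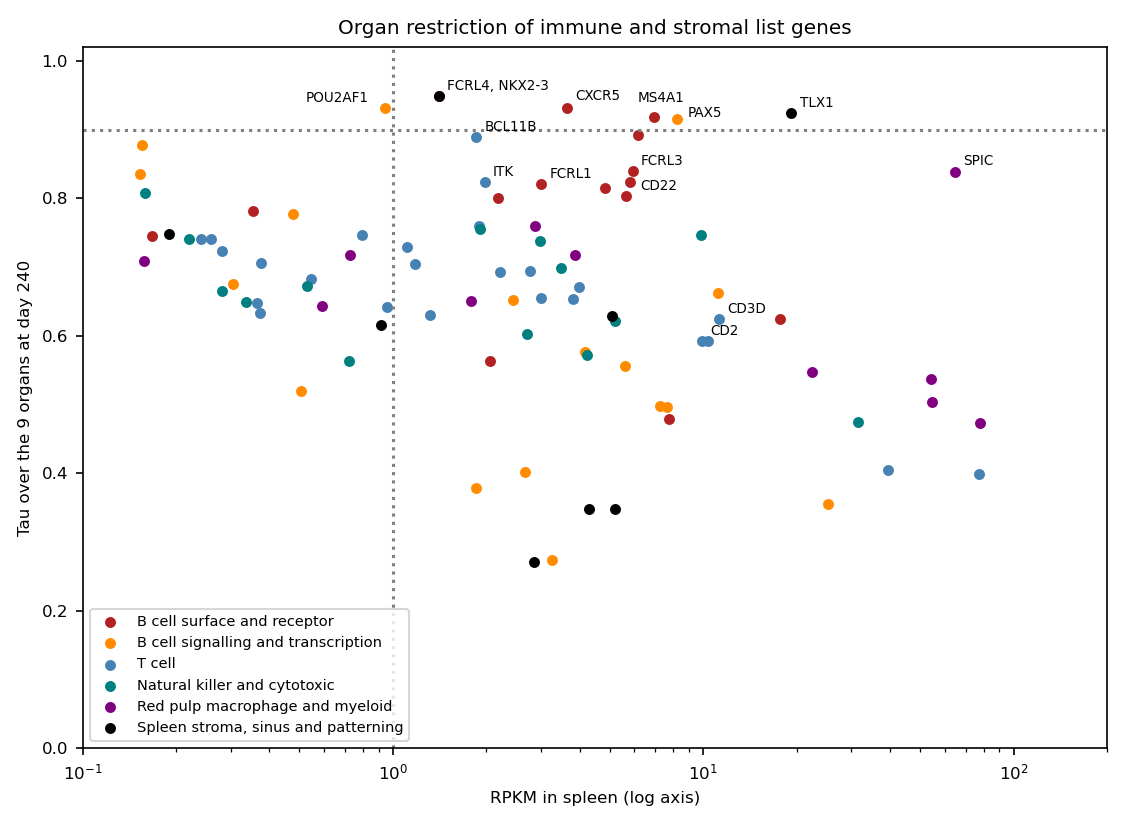
Tau over the 9 organs against RPKM in spleen (log axis) for genes of 6 lists, each point a gene and each colour a list, with dotted lines at the limits of tau 0.9 and RPKM 1 and genes under 0.1 RPKM in spleen not drawn. PAX5, MS4A1, CXCR5, FCRL4, NKX2-3 and TLX1 lie in the upper right field, SPIC lies below the limit of tau at 64.9 RPKM, and POU2AF1 lies to the left of the limit of RPKM.

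The other lists had fewer genes highest in spleen. Of plasma cell genes it was 2 of 4, of stromal and patterning genes 3 of 8, and of erythroid and megakaryocyte genes 3 of 10. Of granulocyte genes it was 0 of 3, and of cell division genes 0 of 20. The 3 stromal and patterning genes included TLX1 and NKX2-3, for which the rule required a highest value in spleen. The plasma cell and immunoglobulin list had 23 symbols, of which 5 were paired with an identifier (MZB1, SDC1, XBP1, PRDM1 and CD38). Immunoglobulin genes were not among these 5, so the list says nothing about them. Genes of the pancreas, which lies against the spleen, were at 0 in spleen for 9 of 15, the highest of the rest was GP2 with 0.894 RPKM, and none was highest in spleen. MS4A1, TLX1 and SPIC, taken as defining genes of splenic tissue, were each highest in the library labelled spleen. For MS4A1 and TLX1, which are spleen-restricted genes, the rule required this, so only SPIC was free to differ. CD3E and NKX2-5 were not analysed here, since no listed identifier was paired with them.

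In the libraries that did not enter the rule, few of the spleen-restricted genes were listed above 0 in muscle and nearly all were in the tissue mixture. Above 0 RPKM were 5 of the 37 genes in muscle at day 0 (61.3% of all Ensembl genes), 5 at day 30 (64.0%), 36 in the tissue mixture (88.8%), and 18 in that of muscle (79.6%). A total of 25 genes were at 0 in all 3 muscle stages, a count given without the share over all Ensembl genes. The rule asked for low values in muscle at day 240, and the younger stages are the same tissue. The tissue mixture may hold spleen RNA, and it had 108337358 reads, more than any other library.

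**Figure D4:**
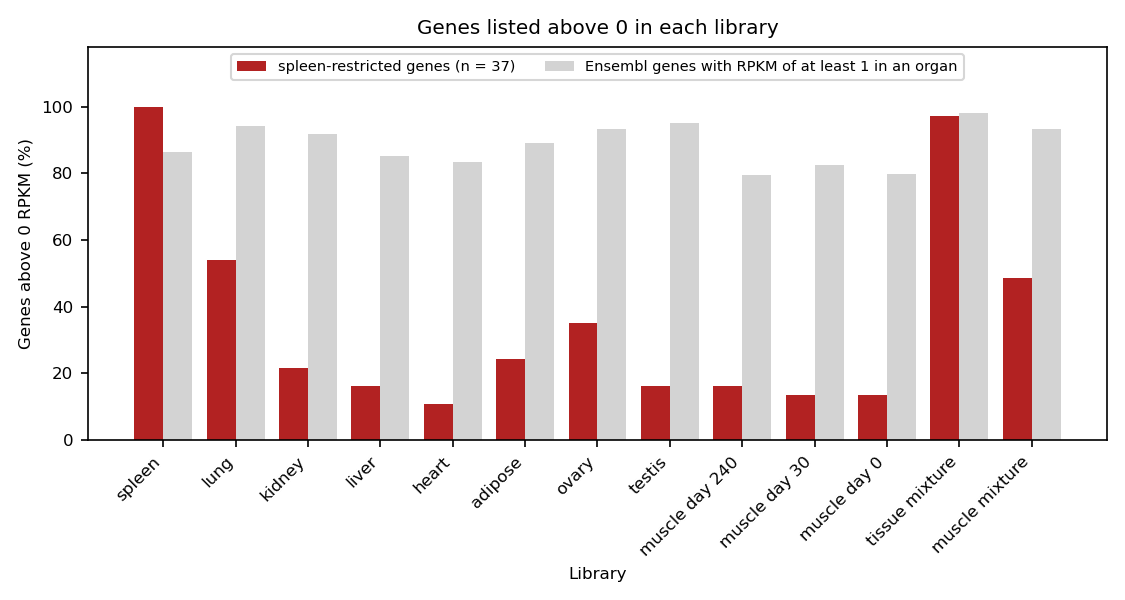
Share of genes above 0 RPKM in each library, for the 37 spleen-restricted genes (red bars) and for the expressed genes, which reached 1 RPKM in an organ (grey bars). The red bars reach 100% in spleen by the rule, 54.1% in lung and 97.3% in the tissue mixture, and stay under 40% in the remaining single tissues.

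The mixtures were then compared on log2(RPKM + 0.1). Of the 36 genes above 0 in at least 1 mixture, 27 were at least 2-fold higher in the tissue mixture, against 40.1% of all Ensembl genes, and 0 were at least 2-fold lower, against 5.54%. With a limit of 0.1 RPKM in either mixture, the same count was 27 of 30, against 44.4% and, for lower values, 0 against 6.14%. Of these 30 genes 24 reached the limit through the tissue mixture alone, and a gene at that limit in 1 library and at 0 in the other is 2-fold apart by construction. Among the 6 genes that reached it in both mixtures, an alternative chosen after seeing the data, 4 were at least 2-fold higher in the tissue mixture (35.9% of all Ensembl genes were) and 0 at least 2-fold lower (7.09%). These 4 were ENSSSCG00000021190 (3.78 on the log2 scale), ENSSSCG00000003202 (3.60), SIRPB2 (2.03) and ENSSSCG00000021781 (1.73). The median difference over all Ensembl genes that reached the limit in either mixture was 0.82. GPR82 had the largest difference of the 37 genes (6.37), followed by ENSSSCG00000024091 (5.76). The 3 genes that reached 0.1 RPKM without a 2-fold difference were ENSSSCG00000024449, ENSSSCG00000008142 and ENSSSCG00000002055. There was 1 library of each mixture, so no test was made.

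The tissue mixture did not carry the genes in equal proportion to spleen. The RPKM in the mixture was a median of 0.233 of that in spleen over the 37 genes, against 0.609 over all genes highest in spleen and 2.82 over the expressed genes. Spleen RPKM also entered the rule, so a low ratio over the 37 genes was favoured by how they were chosen. The ratio was under 0.05 for 8 genes, among them ENSSSCG00000008205 and CABP5, and at least 0.5 for 8. It was above 1 for 3 genes, namely ENSSSCG00000022042 (1.69), NKX2-3 (1.26) and ENSSSCG00000008142 (1.18), but with RPKM scaled to equal totals or equal median ratios it was above 1 for 0 genes, and the highest was 0.626 or 0.603. Across the 37 genes, the values in spleen and in the tissue mixture had a Spearman correlation of 0.62, given as a description, since genes of 2 libraries share their depth and gene length. The counted reads were 30.0% of the total in the tissue mixture and 11.6% in spleen. Scaling to equal totals or median ratios multiplied every ratio of tissue mixture to spleen by 0.371 or 0.357. The median over the 37 genes became 0.0863 or 0.0832, and the other medians change by the same factor. The scaled median is thus not to be set beside the unscaled 0.609 and 2.82.

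**Figure D5:**
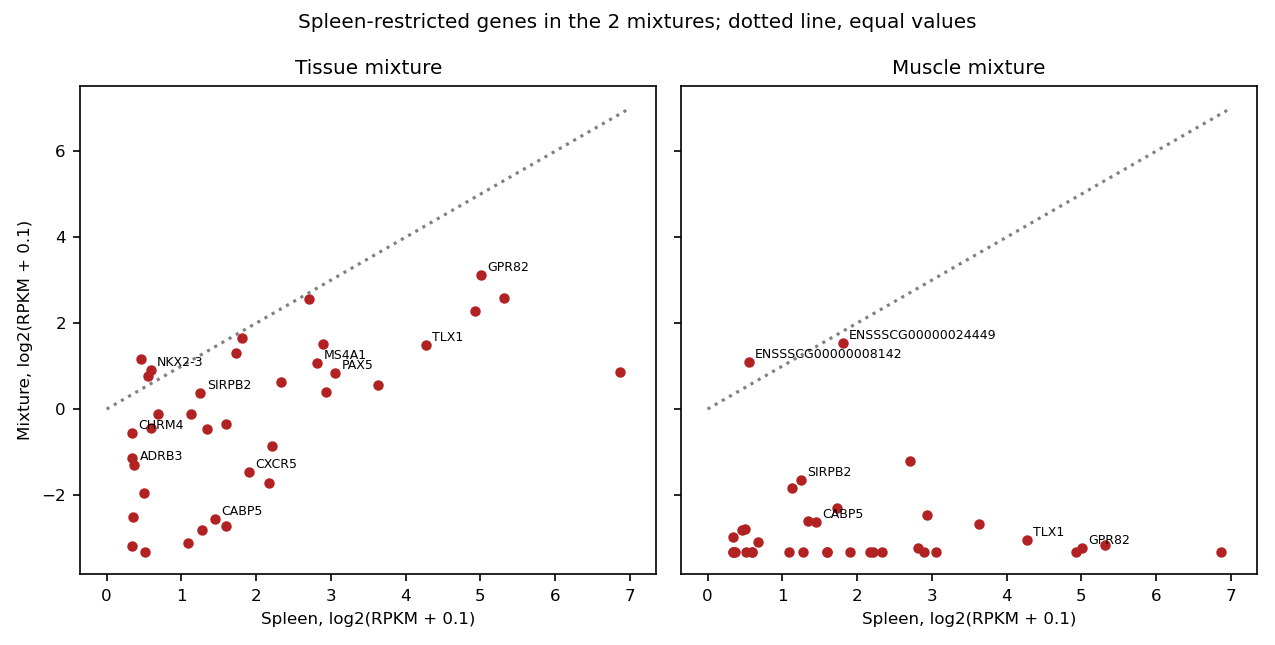
log2(RPKM + 0.1) of the 37 spleen-restricted genes in the tissue mixture (left) and the muscle mixture (right) against spleen, each point a gene, with a dotted line at equal values. With RPKM as deposited, 3 points lie above the line in the tissue mixture, NKX2-3 among them, and in the muscle mixture only ENSSSCG00000008142 does, with ENSSSCG00000024449 just below it, whereas 0 do after either scaling.

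In the muscle mixture 6 genes had at least 0.1 RPKM. The highest were ENSSSCG00000024449 with 2.81 RPKM (73 reads), against 3.40 in spleen, and ENSSSCG00000008142 with 2.03 (95 reads), against 1.37 in spleen. After scaling to equal totals or median ratios, ENSSSCG00000008142 was below spleen too, at 0.600 or 0.744 of it. Both genes were under 0.1 RPKM or at 0 in muscle of Guizhou mini-pigs at day 240. Among the named genes SIRPB2 was highest in the muscle mixture, with 0.218 RPKM, followed by CABP5 with 0.0608 and TLX1 with 0.0202.

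In longissimus dorsi the genes rested on few reads. From day 0 to day 30, 5 genes reached 0.1 RPKM at either stage. Of these, 2 were at least 2-fold higher at day 0 (41.2% of all Ensembl genes were) and 3 at least 2-fold lower (11.4%), while the median over all Ensembl genes compared was 0.75 higher at day 0 on the log2 scale. ENSSSCG00000028461 had 0.753 RPKM (29 reads) at day 0 and 0 at day 30 and day 240, with 4.41 in spleen and 0.206 in the tissue mixture. ENSSSCG00000024449 had 0.747 RPKM (11 reads) at day 0, 0.0993 (1 read) at day 30 and 0 at day 240. These were the 2 higher genes. The 3 lower genes, ENSSSCG00000008205, ENSSSCG00000006341 and ENSSSCG00000002055, had 1, 2 and 1 reads at day 30 and 0 at day 0, too few to tell the stages apart. Between day 0 and day 240, 4 genes reached 0.1 RPKM at either age, with the same 2 genes at least 2-fold higher at day 0 (36.8% of all Ensembl genes were) and ENSSSCG00000008205 and ENSSSCG00000024091 at least 2-fold lower (10.4%), on 2 and 7 reads at day 240. The named genes were at 5 reads or fewer in every muscle stage.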

How the data were processed

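The authors isolated total RNA with TRIzol, depleted ribosomal RNA and made strand-specific paired-end libraries with the SMART or dUTP protocol, without naming which for each library. Reads were mapped with TopHat (1.3.2, per the submitters' processing notes), transcripts were assembled with Cufflinks, reads on lncRNAs were counted with htseq-count (the counter of Ensembl genes is not stated apart), and the deposited files give 1 RPKM value per feature and library for 32420 features, of which 10813 are lncRNAs. The genome build and annotation release of these values are not given in the sources used here.

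The total reads of each library were recovered from ratios of RPKM between libraries and the commonest whole step of features with few reads, and the reads of a gene from the smallest length giving whole reads. For the 10 spleen-restricted genes above 0 in fewer than 4 libraries, reads and lengths are lower bounds. Tested on simulated data, the depth of 13 of 13 libraries, 21678 of 21764 features seen in 4 or more libraries, and 5935 of 7315 seen in fewer, were recovered. Each library is its own group, so no test was possible. Symbols came from a reference table of gene identifiers (12 genes) and, for PAX5, from the study's supplementary table. The named genes were those with a symbol that were among the 10 highest in spleen, in a list, highest in muscle, mixtures or another organ, or nearest the limits, as well as defining genes of spleen. Another gene that meets this rule was left out of the text. The remaining genes with a symbol, other members of gene families and other genes given by identifier were named after their values were seen. The genes and lists were chosen with earlier results of these data known. Sequences were not analysed here. Python 3.11.15 with numpy 2.4.6, pandas 2.3.3, scipy 1.17.1 and matplotlib 3.10.9 was used.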

Additional observations from a re-analysis of the deposited data

How the results depend on the processing

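The number of spleen-restricted genes, 37 as reported, changed by more than 1.5 times under 7 of 11 other settings. It was 17 with a pseudocount of 0.01, 85 with 1, 88 with RPKM of at least 0.1 in spleen, 57 with tau of at least 0.85, 15 with 0.95, 62 with lung left out, and 1 with values under 3 reads in the other organs set to 3 reads (chosen after seeing the data). The number of them in a gene list, 6 as reported, was 1, 21, 11, 0, 13 and 0 with pseudocounts of 0.01 and 1, tau of at least 0.85 and 0.95, lung left out and the 3 reads. The median share of RPKM in spleen was 97.5% and 83.8% with pseudocounts of 0.01 and 1, 98.0% with tau of at least 0.95 and 97.4% with the 3 reads. Scaling RPKM to the same total or median ratio gave 55 and 49 genes, and all 37 were still highest in spleen under both. With a pseudocount of 1, the genes past 2-fold between muscle stages fell to 0 in each direction, and those higher in the tissue mixture to 15. With at least 10 reads in either library, only 2 genes were compared for each pair of stages. Of these, 0 were lower at day 0 than at day 30 or day 240 (8.54% and 8.68% of all Ensembl genes were). Either scaling put below spleen the 3 genes above it in the tissue mixture and the 1 above it in that of muscle. Other settings kept these counts within 1.5 times. The causes were not tested. No paired analysis was possible because each group was 1 library with no replicate numbers to pair, so no replicate could be left out either. Depth limits the values at 0, and neither animals nor libraries were replicated.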
